A study of Sus scrofa with 12 samples.

Results

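Epicardial and mesothelial genes were examined in the border zone and remote zone of the pig heart after infarction. The genes were WT1, TCF21, TBX18, MSLN, UPK3B, UPK1B, KRT8, KRT18, KRT19 and BNC1, chosen by name as markers of the outer lining of the heart and of the mesothelium. Of these 10 genes, 8 had an identifier in the count files, and MSLN and KRT19 were not analysed here. WT1, TCF21, TBX18, KRT8 and KRT18 passed the filter on low counts and entered the test across 13844 genes. UPK3B, UPK1B and BNC1 did not pass it and are given as reads. None of the 5 tested genes changed between the zones past the threshold of the main test, and UPK3B, UPK1B and BNC1 were outside that test. TBX18 and TCF21 had the lowest p-values among the 5 tested genes and higher levels in the border zone in 5 of 6 animals each.

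The libraries came from 6 young female Yorkshire pigs, and each animal gave 1 border zone and 1 remote zone library. All animals had a 60 min balloon occlusion of the left anterior descending artery. From day 9 all received immunosuppression each day, with 20 mg prednisolone, 500 mg mycophenolate mofetil and tacrolimus at 0.75 mg per kg. On day 14, through a chest incision, the heart surface of the animals received fibrin glue, either alone or over vascular organoids made of human endothelial progenitor and smooth muscle cells. By the study's methods the organoids covered the infarct and the border zone around it, so in those animals the surface of the sampled zone was itself treated, and the hearts were taken several weeks later. Border zone (BZ) tissue bordered the infarct, whereas remote zone tissue came from the back wall of the heart. The labels gave the zone and the animal but not which animals received organoids, so both treatments are mixed within each zone and were not compared. The library numbers of animal 3622 run opposite to those of the other animals. Its zones were taken as labelled, and COL1A1 was at 1895 CPM in its border zone library and 681 CPM in its remote zone library. Each library is a piece of tissue, so fewer cells of a type and less RNA per cell cannot be told apart.

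Border zone libraries held between 15130210 and 30526110 counted reads and remote zone libraries between 20091415 and 31618680. A count of 3 reads corresponded to between 0.0883 and 0.201 CPM (reads of a gene scaled to a common library size) across the libraries, which is taken as the floor of detection and covers counting error only. CPM values were scaled by TMM factors. The border zone library of animal 3622 was the smallest and had reads for 6127 of 11724 genes that were at 0 in every other library. The tissue label held for cardiac muscle, with TNNI3, cardiac troponin I, at 1072 CPM or more in every library. COL1A1, the main fibrillar collagen of scar, was higher in the border zone in 6 of 6 animals. Its highest level, 30498 CPM, was in animal 1022, whose border zone library had the lowest TNNI3 level of the 12.

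The epicardium is the mesothelial sheet that covers the heart. In the embryo it gives rise to cells that enter the wall and become fibroblasts and mural cells, and in the adult its cells are reactivated by injury. WT1, TBX18, TCF21 and BNC1 are transcription factors of this layer or of cells derived from it. TCF21 and TBX18 also mark cardiac fibroblasts and pericytes, and WT1 is also found in endothelial cells. UPK3B and UPK1B encode uroplakins, membrane proteins of urothelium that mesothelial cells also carry. KRT8 and KRT18 encode keratins that pair with each other to build the intermediate filaments of simple epithelia and mesothelium.

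Promoters are shown for TCF21 and TBX18, which had the widest differences between the zones among the tested genes, and for KRT8 and KRT18, which encode filament partners and lie on the same chromosome. Each sequence covers the 250 bases before the gene start that RefSeq gives on the Sscrofa11.1 genome, written 5′ to 3′ on the strand of the gene. Capitals mark matches, on either strand, to the GC box GGGCGG, the CCAAT box CCAAT, the TATA box TATAAA, the WT1 and EGR core GCGTGGG, the TEAD site GGAATG and the E-box CANNTG.
TCF21: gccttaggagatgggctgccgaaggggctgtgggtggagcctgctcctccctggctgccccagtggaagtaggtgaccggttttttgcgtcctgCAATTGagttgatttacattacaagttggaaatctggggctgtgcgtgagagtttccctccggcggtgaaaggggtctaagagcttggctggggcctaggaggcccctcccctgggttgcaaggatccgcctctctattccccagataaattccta
TBX18: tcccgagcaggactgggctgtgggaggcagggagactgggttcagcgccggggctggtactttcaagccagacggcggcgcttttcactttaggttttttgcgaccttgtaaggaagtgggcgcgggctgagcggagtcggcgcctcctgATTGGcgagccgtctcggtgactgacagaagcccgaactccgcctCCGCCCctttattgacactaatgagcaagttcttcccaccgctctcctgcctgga
KRT8: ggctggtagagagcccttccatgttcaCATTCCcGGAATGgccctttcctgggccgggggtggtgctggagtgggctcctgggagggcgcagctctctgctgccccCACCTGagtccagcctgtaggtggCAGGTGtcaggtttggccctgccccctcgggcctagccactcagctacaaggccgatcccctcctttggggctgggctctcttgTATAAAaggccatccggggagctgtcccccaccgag
KRT18: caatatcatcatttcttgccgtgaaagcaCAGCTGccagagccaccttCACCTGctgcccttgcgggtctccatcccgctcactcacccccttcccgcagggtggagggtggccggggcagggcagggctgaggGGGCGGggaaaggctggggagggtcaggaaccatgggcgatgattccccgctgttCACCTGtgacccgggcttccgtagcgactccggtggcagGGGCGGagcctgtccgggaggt

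The TCF21 promoter (chr1:29978274-29978523, minus strand) held 1 E-box, and the TBX18 promoter (chr1:53867461-53867710, minus strand) held 1 GC box and 1 CCAAT box. The KRT8 promoter (chr5:18180278-18180527, minus strand) held a TATA box that began 36 bases before the start, 2 E-boxes and 2 TEAD matches. The KRT18 promoter (chr5:18217436-18217685, plus strand) held no TATA box, 2 GC boxes and 3 E-boxes. The TATA box was found in 9.77% of all 19556 promoters of this length, the TEAD site in 10.3%, the WT1 and EGR core in 5.77%, the CCAAT box in 31.9%, the GC box in 45.9% and the E-box in 61.9%. The keratin partners thus differed in promoter letters, since KRT8 had a TATA match and no GC box and KRT18 had the reverse. GC content was 65.2% in KRT8, 66.4% in KRT18, 61.2% in TBX18 and 57.2% in TCF21, beside a median of 57.6% over all promoters. A match is a description of the letters only, and no binding was measured.

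TBX18, a T-box factor of the epicardium and of pericytes, was higher in the border zone library than in the remote zone library of 5 of 6 animals. In the border zone its level was 19.6 CPM in animal 1022, 1.07 in animal 1322, 3.71 in animal 1323, 4.74 in animal 1623, 5.73 in animal 1922 and 3.24 in animal 3622. In the remote zone of the same animals it was 1.07, 2.13, 1.15, 1.53, 0.780 and 2.21 CPM. The zones overlapped only through animal 1322, whose border zone level was below its remote zone level. The border zone library of animal 1022 held 51.5% of the border zone CPM of the gene. The fitted fold change was 4.32 (95% interval 1.87 to 10.006), or 2.11 on the log2 scale with an SE of 0.56. The adjusted p was 0.0605 by edgeR's quasi-likelihood test, short of the threshold of 0.05, and 0.00667 by DESeq2, which called the gene. With the animal as a block, which pairs the libraries of an animal, the log2 fold change was 1.67 (SE 0.62, adjusted p = 0.125 by edgeR). Without animal 1022 the log2 fold change was 1.25 (adjusted p = 0.179 by edgeR), and without animal 1322 it was 2.44 (adjusted p = 0.0387 by edgeR).

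TCF21, a basic helix-loop-helix factor of epicardium-derived cells and cardiac fibroblasts, was higher in the border zone in the same number of animals, 5 of 6. Its border zone level was 28.0 CPM in animal 1022, 8.91 in animal 1322, 51.0 in animal 1323, 13.8 in animal 1623, 21.1 in animal 1922 and 17.5 in animal 3622. The remote zone levels were 10.3, 7.17, 8.59, 5.65, 7.59 and 18.5 CPM in the same order. The exception was animal 3622, whose remote zone library had the highest remote level and was close to its border zone library. The fold change was 2.44 (95% interval 1.36 to 4.38), or 1.29 on the log2 scale with an SE of 0.39. The adjusted p was 0.0865 by edgeR and 0.0329 by DESeq2, so the call again depended on the tool. With the animal as a block the log2 fold change was 1.18 (SE 0.32, adjusted p = 0.0841 by edgeR). Without animal 1323, which had the highest border zone level, the log2 fold change was 0.81 (adjusted p = 0.261 by edgeR).

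WT1, the zinc finger factor encoded by the Wilms tumour gene, showed no such gap. Its border zone level was 5.35 CPM in animal 1022, 3.56 in animal 1322, 6.48 in animal 1323, 5.29 in animal 1623, 3.64 in animal 1922 and 3.12 in animal 3622. The remote zone levels were 3.52, 3.39, 5.43, 6.41, 2.75 and 2.81 CPM. The zones overlapped over most of their range, and animals 1323 and 1623 had high levels in both. The fold change was 1.13 (95% interval 0.749 to 1.70), with an adjusted p of 0.736 by edgeR, so a change above 1.70-fold lay outside the interval. Per kilobase of exon WT1 was below TCF21 in all 12 libraries.

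BNC1 encodes basonuclin, a zinc finger factor of keratinocytes and mesothelium, and it was at or near 0. Animal 1323 had 6 reads in its border zone library and animal 3622 had 4, and the other 10 libraries had 0. The mean paired difference was 0.54 on the log2(CPM + 0.1) scale (SD 0.85, n = 6), with an exact p of 0.5 by a two-sided test over sign changes within animals. With 4 animals tied at 0 reads in both zones, 0.5 is the smallest p that the test can give for this gene, so it could not pass. The size of the difference depends on the constant added, as it was 0.17 on the log2(CPM + 0.5) scale and 3.79 in edgeR with no filter (adjusted p = 0.190), and none of these is a bound.

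**Figure D1:**
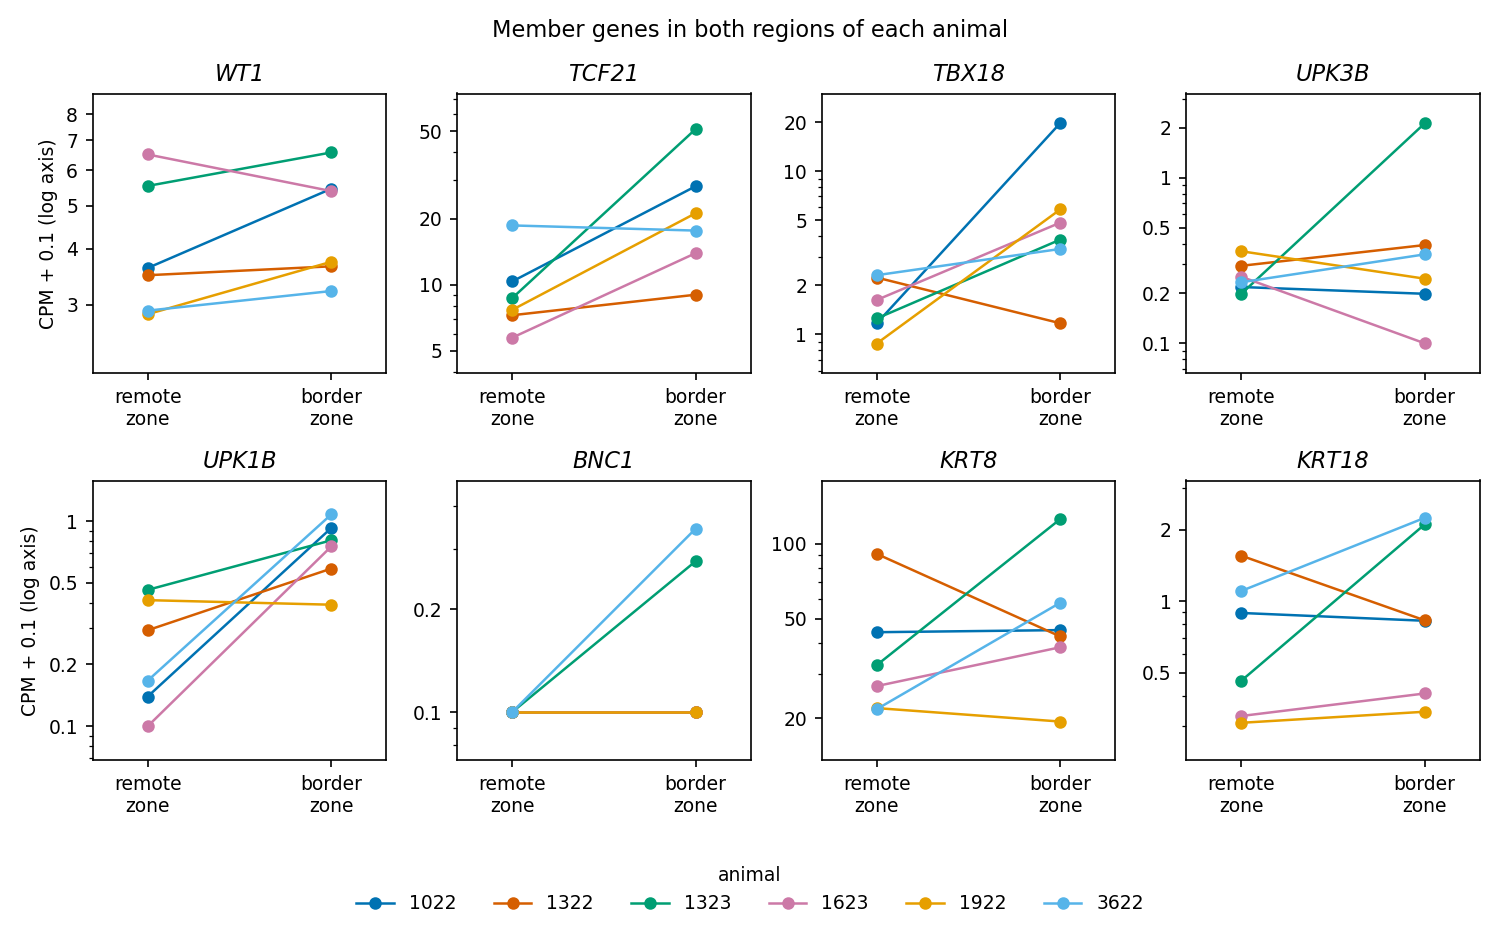
CPM + 0.1 on a log axis for each of the 8 measured genes, with 1 line per animal joining its remote zone and border zone library. The border zone end of the TBX18 line was higher in 5 animals, with animal 1022 far above the others at 19.6 CPM, while WT1 stayed between 2.75 and 6.48 CPM in both zones.

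Of the 5 tested genes, 0 passed an adjusted p of 0.05 in edgeR, where 2.07% of all 13844 genes did (287 genes), and 2.06% were called higher in the border zone (285 genes). At an unadjusted p under 0.05 the count was 2 of 5, TBX18 and TCF21, beside 24.7% of all genes. DESeq2 called 3 of the 7 genes that it gave an adjusted p, TBX18, TCF21 and UPK1B, beside 10.3% of 16688 genes. All 5 fitted differences were positive, with a median of 0.61 on the log2 scale beside 0.04 over all genes tested. Being higher in the border zone in at least 5 of 6 animals, which held for TBX18, TCF21 and WT1 among the tested genes, was found in 28.8% of all genes. With the animal as a block edgeR also called 0 of the 5, and 41 of all genes (0.296%).

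**Figure D2:**
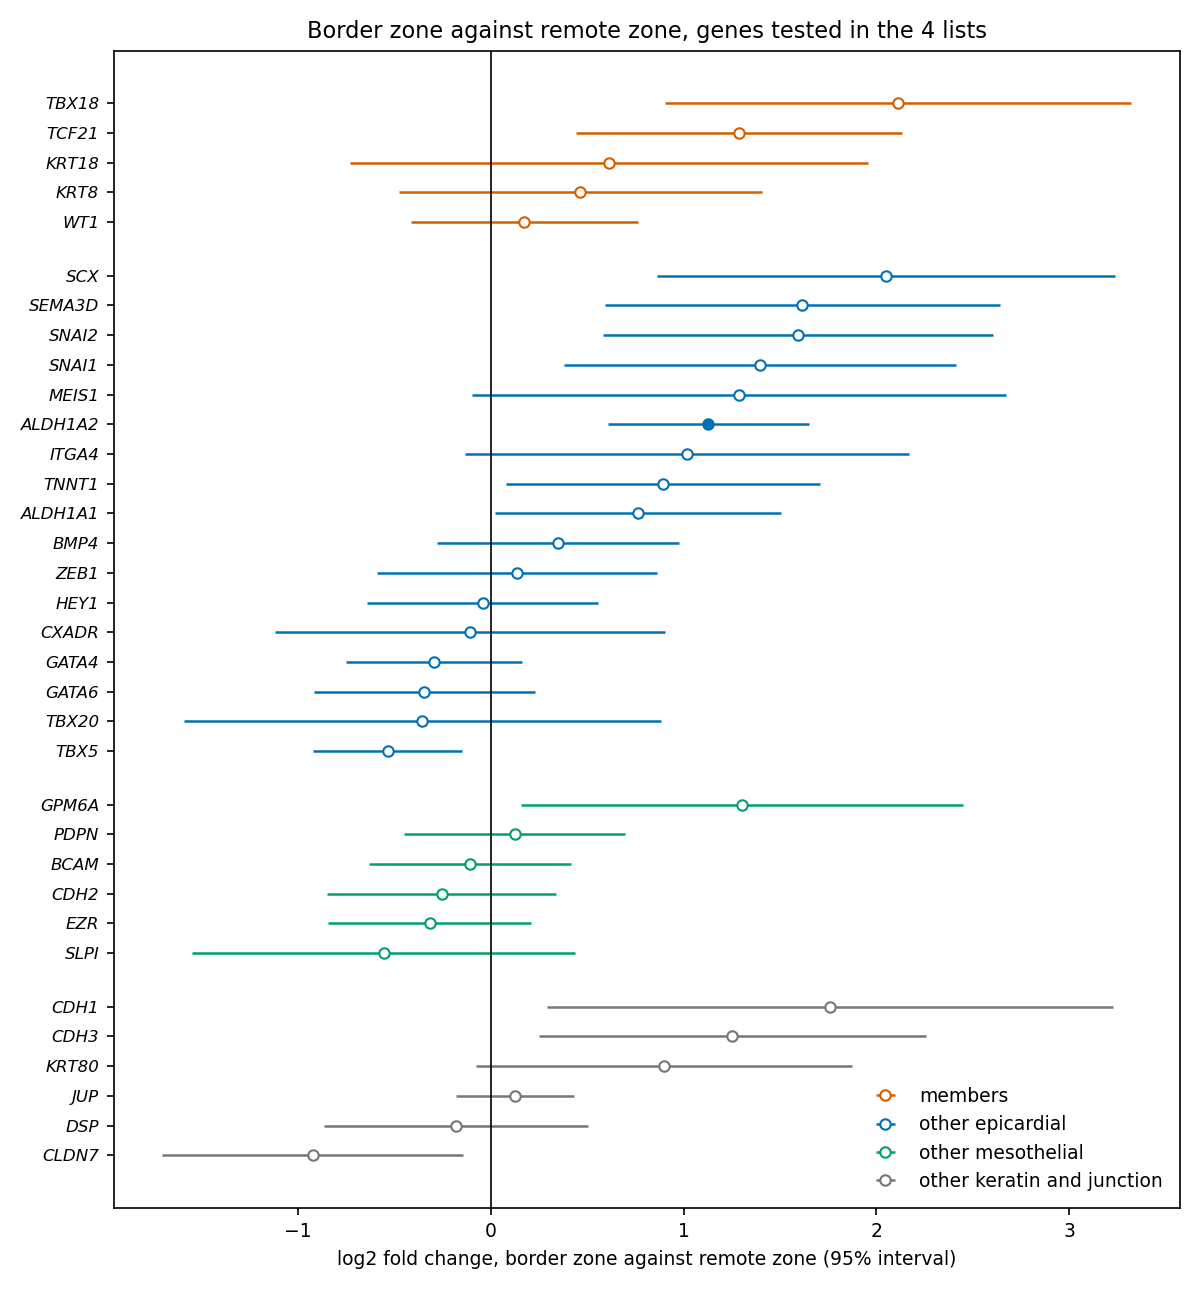
Log2 fold change of border zone over remote zone with its 95% interval for the tested genes and for the tested genes of related lists, from edgeR's quasi-likelihood test with 6 libraries per zone. Filled points passed an adjusted p of 0.05, which only ALDH1A2 did, and the intervals of TBX18 and TCF21 lay above 0 while those of WT1, KRT8 and KRT18 crossed it.

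The uroplakin genes were near the floor. UPK1B, a tetraspanin that partners with uroplakin 3, had 25, 10, 24, 19, 6 and 16 reads in the border zone of animals 1022, 1322, 1323, 1623, 1922 and 3622. In the remote zone the reads were 1, 4, 11, 0, 6 and 1 in the same order. All 6 border zone libraries were above the 3-read floor, and 3 of the remote zone libraries were below it. In CPM the border zone ranged from 0.291 to 0.978 and the remote zone from 0 to 0.362, and the gene was higher in the border zone in 5 of 6 animals. The mean paired difference was 1.68 on the log2(CPM + 0.1) scale (SD 1.26, n = 6) with an exact p of 0.0625, where 0.03125 is the smallest that 6 animals allow, and the DESeq2 adjusted p was 0.0474. The difference was 0.81 on the log2(CPM + 0.5) scale and 1.91 in edgeR with no filter (adjusted p = 0.190).

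UPK3B, a mesothelial uroplakin, had 69 reads in the border zone library of animal 1323 and at most 6 in any other library. The other border zone libraries had 3, 6, 0, 3 and 4 reads in animals 1022, 1322, 1623, 1922 and 3622, and the remote zone libraries had between 2 and 5. That 1 library, at 2.03 CPM, held 72.2% of the border zone CPM. The paired difference was 0.40 (SD 1.64, n = 6) with an exact p of 0.719, and it was -0.21 without animal 1323. In edgeR with no filter the log2 fold change was 1.52 (adjusted p = 0.257). The gene spans of UPK3B and DTX2, introns included, overlap on the same strand by 6105 bases in the RefSeq annotation. Overlap of their exons was not measured, so whether counted reads can belong to either gene is not known.

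Of 20 further mesothelial genes on a list, 15 had an identifier, 6 passed the filter and 9 did not. None of these 6 passed an adjusted p of 0.05 in edgeR, and their median difference was -0.18 on the log2 scale. At an unadjusted p under 0.05, 1 passed (GPM6A, a membrane glycoprotein), beside 24.7% of all genes. CDH2, N-cadherin, had the highest level on the list and was at 193 to 503 CPM in the border zone, against 273 to 592 CPM for the remote zone. It is also the cadherin that joins cardiomyocytes. BCAM, EZR, CDH2 and SLPI had fitted differences below 0 and PDPN had 0.12 on the log2 scale, all with an adjusted p of 0.439 or more by edgeR. The 9 genes under the filter had between 14 and 126 reads over the 6 border zone libraries, and between 0 and 47 over the 6 remote zone libraries. Of these 9, CLDN15 was the most even, with 52 border zone and 47 remote zone reads and a higher border zone level in 3 of 6 animals. The genes described next were chosen after their values were seen. CALB2, which encodes calretinin, had 2, 2 and 10 reads in the border zone of animals 1322, 1623 and 3622 and 0 elsewhere. KRT7, a keratin of simple epithelia, had 31 reads in the border zone of animal 1022 and 45 in that of animal 3622, and at most 5 in any other library. HAS1, a hyaluronan synthase, had 18, 1, 13, 5, 1 and 10 reads in the border zone libraries and 3, 0, 2, 1, 0 and 5 in the remote zone libraries, again in the order of the animals above.

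The border zone libraries with most reads differed from gene to gene. UPK3B was highest in animal 1323, whereas RSPO1 and DMKN, both found in mesothelium, had 26 and 65 reads in animal 1022. CALB2, KRT7 and BNC1 had reads in animal 3622, the library with reads of many genes that were at 0 elsewhere. CLDN1, a tight junction protein, had 49, 5, 25, 23, 7 and 17 reads in the border zone and 4, 2, 13, 6, 2 and 3 in the remote zone. Its border zone level was higher in 6 of 6 animals, as were those of KRT7, HAS1 and PKHD1L1. Among the genes tested, which leave out these low genes, the share was 11.7%. DESeq2 called CLDN1 and KRT7 (adjusted p = 0.0291 and 0.0271), and edgeR with no filter did not (0.151 and 0.126). CALB2 and BNC1 had 3 or fewer reads in 11 and 10 of the 12 libraries, while UPK1B, CLDN1 and CLDN15 had more than 3 reads in 9 each. Mesothelial genes without an identifier, such as MSLN, KRT19, MUC16 and LRRN4, were not analysed here.

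**Figure D3:**
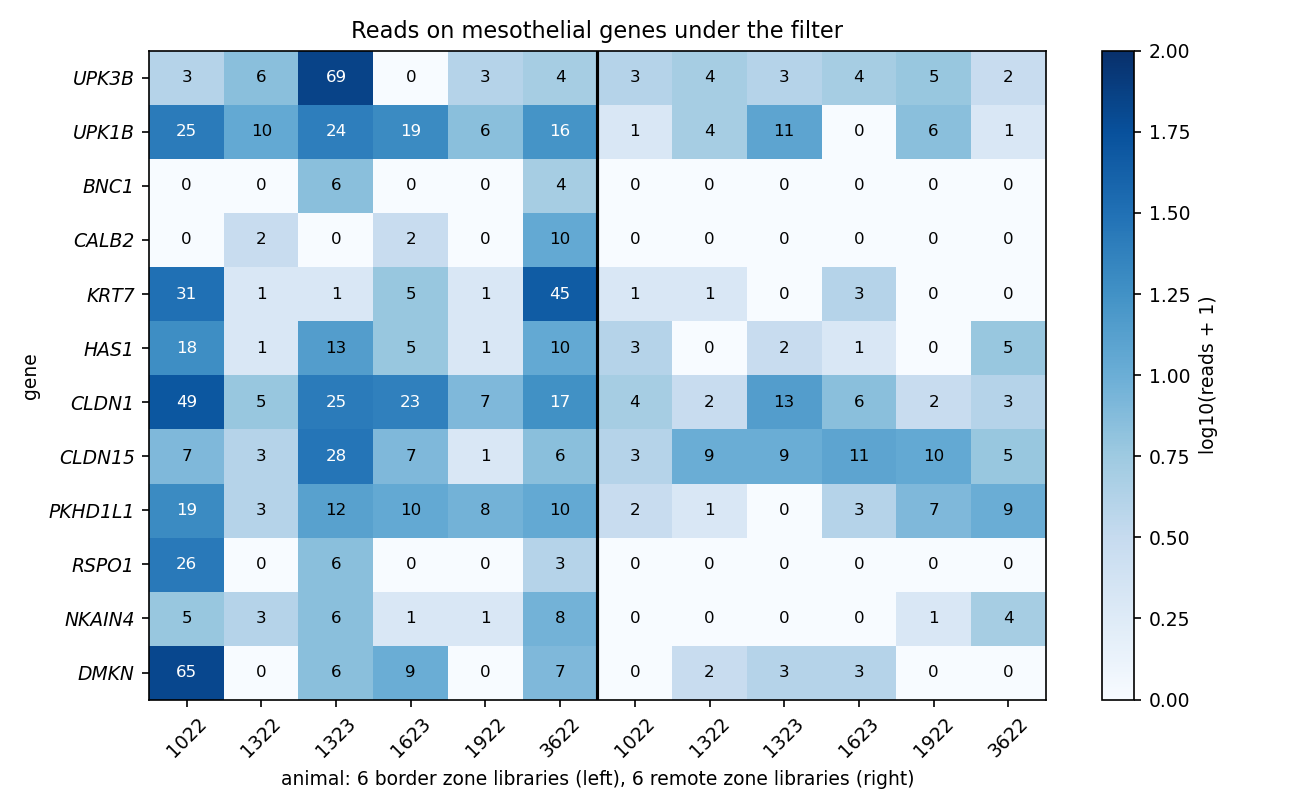
Reads of 12 mesothelial and epithelial genes under or near the filter in each of the 12 libraries, with colour on a log10(reads + 1) scale. Remote zone libraries had 13 or fewer reads of each, while border zone reads were gathered in animals 1022, 1323 and 3622, such as 69 reads of UPK3B in animal 1323.

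KRT8 had the highest median level of the 8 genes per kilobase of exon and varied widely between libraries of the same zone. Its border zone level was 44.97 CPM in animal 1022, 42.4 in animal 1322, 125 in animal 1323, 38.4 in animal 1623, 19.3 in animal 1922 and 57.9 in animal 3622. In the remote zone it was 44.1, 90.8, 32.5, 26.8, 21.9 and 21.7 CPM. The highest border zone library was that of animal 1323, and the highest remote zone library was that of animal 1322. The log2 fold change was 0.46 (SE 0.44, 95% interval -0.48 to 1.40) with an adjusted p of 0.535 by edgeR, and it was -0.07 without animal 1323.

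KRT18, the filament partner of KRT8, was measured at a far lower level. It had 22, 15, 68, 9, 5 and 35 reads in the border zone of animals 1022, 1322, 1323, 1623, 1922 and 3622, and 20, 30, 11, 6, 4 and 15 reads in the remote zone. Like KRT8, it was higher in the border zone in 4 of 6 animals, and it was low in both zones of animals 1623 and 1922. The log2 fold change was 0.61 (SE 0.63, 95% interval -0.73 to 1.95) with an adjusted p of 0.572 by edgeR. It was 0.09 without animal 1323, 1.05 without animal 1322 and 0.28 without the border zone library of animal 3622. Levels of the 2 keratins over the 12 libraries had a Pearson correlation of 0.78 (0.86 over the 6 border zone libraries and 0.65 over the 6 remote zone libraries). These correlations describe libraries that share zone, depth and animals.

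Per kilobase of exon, KRT8 exceeded KRT18 by 18.2-fold to 104-fold in single libraries, with a median of 52.6-fold. The proteins form filaments as equal partners, and their transcripts were not near equal in any library. Animal 3622 had the lowest ratio in both zones, at 22.8 and 18.2. KRT8 and KRT18 lie on chromosome 5 at 18172423 to 18180277 and 18217686 to 18221432. Neither had another stretch of the genome with at least 95% identity over 100 bases, and the best other match of the KRT8 coding sequence was 92.3% over 156 bases. The exon lengths are those of RefSeq, which can differ from the gene models that were counted, and the cause of the ratio was not tested.

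KRT8 was also set beside further epithelial keratins and junction genes. Of 15 listed, 13 had an identifier and 6 passed the filter. In edgeR 0 of these passed an adjusted p of 0.05 and 3 an unadjusted p under 0.05, beside 24.7% of all genes. These were CDH1 (E-cadherin) and CDH3 (P-cadherin), above 0 at log2 fold changes of 1.76 and 1.25, and CLDN7, a claudin, at -0.93. DSP, desmoplakin of the desmosome, had the highest level and a log2 fold change of -0.18 (adjusted p = 0.767 by edgeR). Of 4 further uroplakin genes 3 had an identifier and none was tested, and UPK3A, the most abundant, was between 0.0969 and 1.07 CPM.

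Per kilobase of exon over all 12 libraries, the order of median levels was KRT8 at 23.6 CPM per kb, TCF21 at 9.30, WT1 at 0.644, KRT18 at 0.507, TBX18 at 0.483, UPK1B at 0.432, UPK3B at 0.0394 and BNC1 at 0. KRT8 and TCF21 overlapped in range, and TCF21 was above WT1 in every library. WT1, KRT18, TBX18 and UPK1B overlapped and cannot be ordered beyond their spread. The place of TBX18 differed by zone, with a median of 0.940 CPM per kb in the border zone and 0.298 in the remote zone. The UPK1B model in RefSeq holds coding sequence only, which raises its level per kilobase.

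A list of 20 further genes of the epicardium and of cells derived from it was examined. Of these, 17 had an identifier and all 17 were tested. ALDH1A2, the enzyme that makes retinoic acid in the epicardium, was the one gene past the threshold. It was at 10.8 to 26.1 CPM in the border zone against 5.10 to 12.0 CPM in the remote zone, and it was higher in the border zone in 6 of 6 animals (11.7% of all genes were). Its log2 fold change was 1.13 (SE 0.24) with an adjusted p of 0.0338 by edgeR, and the adjusted p was 0.0814 with the animal as a block. The log2 fold change was 0.85 to 1.28 with single animals left out, and the call was lost without animal 1022, 1323, 1623, 1922 or 3622 (adjusted p = 0.0839 to 0.158 by edgeR) and held without animal 1322 (0.0330).

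At an unadjusted p under 0.05, 7 of the 17 genes were higher and 1 was lower in the border zone, beside 17% of all genes higher, and the median log2 fold change was 0.76. After their values were seen, 4 were picked that did not pass the adjusted threshold in edgeR but did in DESeq2. SCX, the tendon factor scleraxis, had a log2 fold change of 2.05 (adjusted p = 0.0633 by edgeR and 0.00749 by DESeq2) and a border zone level of 20.7 CPM in animal 1022. SEMA3D, a secreted semaphorin, and SNAI2, a factor of epithelial to mesenchymal transition, had log2 fold changes of 1.61 and 1.59 (adjusted p = 0.0810 and 0.0811 by edgeR, 0.0228 and 0.0232 by DESeq2). The border zone library of animal 1022 held 46.0%, 45.2% and 48.1% of the border zone CPM of SCX, SEMA3D and SNAI2. With the animal as a block their log2 fold changes were 1.77, 1.41 and 1.35. TBX5, a cardiac T-box factor also found in cardiomyocytes, had -0.54 (adjusted p = 0.105 by edgeR and 0.0261 by DESeq2) and was lower in the border zone in 5 of 6 animals.

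Fibroblast and matrix genes were the one list of other cell types with calls in the main edgeR test, which had zone as its only term. Of 11 fibroblast and matrix genes tested, 9 were called higher in the border zone in edgeR, beside 2.06% of all genes. Their median log2 fold change was 2.93, and 1.81 without animal 1022. FAP, a fibroblast protease, rose by 2.36, the collagens COL3A1, COL5A1, COL1A1 and COL1A2 by 2.98, 2.93, 4.05 and 3.27, and FN1, fibronectin, by 5.09 (adjusted p = 0.0276 to 0.0328 by edgeR). The border zone library of animal 1022 held 83.4% of the border zone CPM of FN1 and 71.7% of that of COL1A1, and with the animal as a block their log2 fold changes were 3.20 and 2.82. Their summed level was 3255 to 70042 CPM in the border zone and 1115 to 2763 CPM for the remote zone, with no overlap. With the animal as a block 1 of the 11 was called, POSTN, the matrix protein periostin (adjusted p = 0.0410). The count was 0 without animal 1323, 1623, 1922 or 3622, 8 without animal 1022 and 9 without animal 1322. In the fits with a count of 0, all 11 had an unadjusted p under 0.05 in edgeR. With every animal, 24.7% of all genes had an unadjusted p under 0.05 in edgeR. Of 10 cardiomyocyte genes 0 passed in edgeR and 3 were lower at an unadjusted p under 0.05, and their summed level was 11498 to 67010 CPM in the border zone and 55509 to 94679 CPM for the remote zone. TNNT2, cardiac troponin T, and TNNI3 had log2 fold changes of -0.40 and -1.10 (adjusted p = 0.528 and 0.148 by edgeR, 0.411 and 0.0487 by DESeq2). The part of these shifts in the values of TBX18, TCF21 and ALDH1A2 was not tested.

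Fat lies beneath the epicardium, and adipocyte genes differed by library. ADIPOQ, adiponectin, was at 2.68, 0, 26.8, 1.24, 19.8 and 1.71 CPM in the border zone of animals 1022, 1322, 1323, 1623, 1922 and 3622. In the remote zone it was at 0.955 CPM in animal 1323, 0.114 in animal 1623 and 0 in the other 4 animals. The library with the highest ADIPOQ was that of animal 1323, which also had the highest TCF21, WT1, KRT8 and UPK3B levels of the border zone. The next was that of animal 1922, which had the lowest KRT8 level of the border zone (19.3 CPM). It had TCF21 at 21.1 CPM, WT1 at 3.64 CPM and 3 reads of UPK3B. Of 7 adipocyte genes tested 0 passed in edgeR, with 3 higher and 1 lower at an unadjusted p under 0.05, beside 24.7% of all genes in either direction. ADIPOQ had a log2 fold change of 5.37 (adjusted p = 0.0540 by edgeR), and it was called with the animal as a block (5.72, adjusted p = 0.0476) and by DESeq2 (adjusted p = 0.0360). PLIN1, perilipin, had 3.04 (adjusted p = 0.0693 by edgeR), and 2.01 with the block (adjusted p = 0.188 by edgeR). It was called by DESeq2 (adjusted p = 0.00517), and 54.9% of its border zone CPM was in animal 1323. LPL, lipoprotein lipase, had -0.52 (adjusted p = 0.333 by edgeR). FABP4, LPL, DGAT2 and PNPLA2 had fitted differences below 0, and the median log2 fold change of the list was -0.46. The summed level of the adipocyte list was 319 to 1379 CPM in the border zone and 987 to 1326 CPM for the remote zone. LPL alone was at 162 to 1038 CPM in the border zone and 698 to 1031 CPM in the remote zone. ADIPOQ was at most 26.8 CPM, so the sum mostly reflects other genes of the list. Lung epithelium genes, a check for tissue from beside the heart, summed to at most 0.172 CPM in 11 libraries and to 1.10 CPM in the other, from the border zone of animal 3622. SFTPC was at most 0.145 CPM, and SFTPB, a surfactant protein, had 15 reads in that last library, which also held most of the CALB2 and KRT7 reads. None of 10 endothelial genes, 11 smooth muscle and pericyte genes and 6 immune genes passed in edgeR. At an unadjusted p under 0.05 the counts were 0, 8 (7 of them higher) and 5 (all higher), beside 24.7% of all genes. The endothelial genes PECAM1 and CDH5 had log2 fold changes of 0.17 and 0.16 (adjusted p = 0.626 and 0.697 by edgeR). The smooth muscle genes MYH11, ACTA2 and SMTN had 1.59, 1.91 and -0.57 (adjusted p = 0.0982, 0.0973 and 0.201 by edgeR), and DESeq2 called MYH11 (adjusted p = 0.0320) and gave no adjusted p for ACTA2. The leukocyte genes PTPRC, CD68 and CSF1R had 1.66, 3.20 and 1.63 (adjusted p = 0.116, 0.0637 and 0.0969 by edgeR), and DESeq2 called PTPRC and CD68 (adjusted p = 0.0408 and 0.00716) and gave none for CSF1R. The border zone library of animal 1022 held 77.4% of the border zone CPM of CD68, whose log2 fold change was 1.71 with the block. The part of these cell types in the values of the epicardial and mesothelial genes was not tested.

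Across the 12 libraries TBX18 followed COL1A1, with a Pearson correlation of 0.95 (0.97 in the 6 border zone and 0.73 in the 6 remote zone libraries). TCF21 had 0.73 with COL1A1 (0.51 and 0.28), and 0.77 with ADIPOQ (0.86 and -0.23). TBX18 and TCF21 had 0.70 with each other (0.53 and 0.32), so the value over all libraries was higher than that within either zone. WT1 had 0.22 with TCF21, positive in the border zone (0.65) and negative in the remote zone (-0.57). KRT8 had 0.14 with COL1A1. These values are descriptions over libraries that share the difference between zones, the animals and a wide range of collagen reads.

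**Figure D4:**
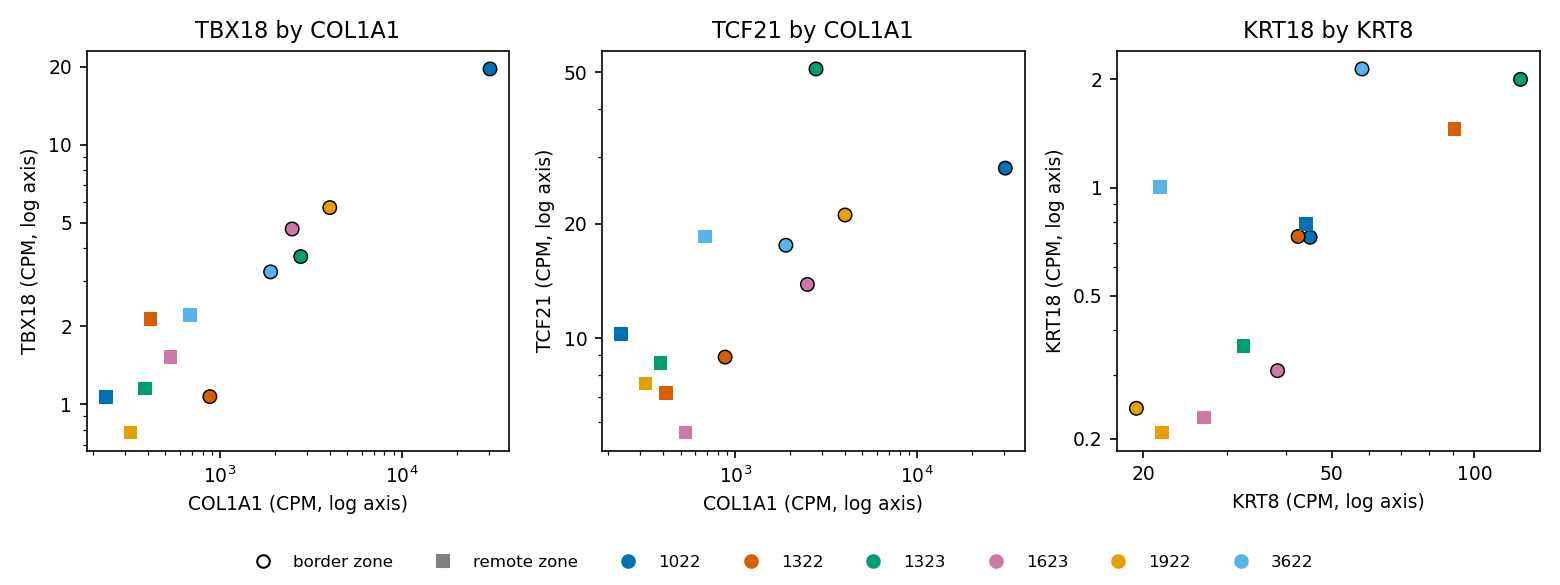
Levels in the 12 libraries on log axes, with TBX18 and TCF21 against COL1A1 and KRT18 against KRT8; circles are border zone, squares remote zone, and colours the animals. TBX18 increased along COL1A1 up to the border zone library of animal 1022 (r = 0.95), TCF21 was more scattered (r = 0.73), and the keratins increased together without separating the zones (r = 0.78).

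The genes whose log2 levels were most like each tested gene over the 12 libraries were ranked by Pearson correlation among 11725 candidates. For TBX18 they were MARCKS (0.98), OAF (0.97) and SLC22A17 (0.97). For TCF21 they were DPT, the matrix protein dermatopontin (0.91), UAP1 (0.91) and DLL1, a Notch ligand (0.90). For WT1 the values were lower, with LMNTD1 (0.88), ARHGAP18 (0.88) and SLC30A4 (0.87). For KRT8 they were TMCO3 (0.82), COL23A1 (0.82) and AGBL3 (0.81), and for KRT18 they were ZNF131 (0.88), AGBL3 (0.84) and RBM27 (0.83). AGBL3 stood on the lists of both keratins, and KRT8 and KRT18 did not stand on each other's. The genes were chosen on these same values, so nothing is read from them on function.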

How the data were processed

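RNA was sequenced from nondirectional poly(A) libraries. With STAR and the Sscrofa11.1 assembly the authors aligned the reads, then counted them per Ensembl gene with featureCounts, and the deposited values were raw counts per gene and library. How reads that match several genes were counted is not given in the sources used here. The sources differ on the RNA extraction kit. Strand was not kept, so reads of antisense transcripts cannot be told apart from a gene where exons overlap. The gene spans, introns included, overlap antisense genes by 146 bases at WT1 and 28603 at BNC1 in RefSeq, and overlap of exons was not measured. Zone and animal came from the labels.

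The main test used edgeR 4.0.16 under R 4.3.3 (TMM factors, filterByExpr, robust quasi-likelihood test, zone as the only term, Benjamini-Hochberg adjustment over 13844 genes, threshold 0.05). Fits used limma 3.58.1 functions, and DESeq2 1.42.0 was an alternative. SE was the log2 fold change over the root of F. The spread includes the treatments mixed in each zone. UPK3B, UPK1B and BNC1 were tested on log2(CPM + 0.1) by exact sign changes within animals. Libraries of 1 animal were paired: deviations from the zone means correlated by -0.03 to 0.57 (mean 0.35, over 0.1 in 4 of 6 animals). The fits were tested on simulated data. Promoters and loci were read with pysam 0.24.0, and copies searched with blastn 2.17.0. The genes and lists were chosen with earlier results of these data known. Named genes were the listed genes with an identifier, the 3 genes most correlated with each tested one, the called genes of each list (up to 4 by p), otherwise its gene with the highest mean CPM, and the first 2 measured genes of each cell type list. Other named genes were chosen after their values were seen.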

Additional observations from a re-analysis of the deposited data

How the results depend on the processing

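Against 287 of all genes past the threshold in edgeR, the count was 41 with the animal as a block, 1724 in DESeq2, 1551 with library totals in place of TMM factors, 139 with no filter, 149 with at least 10 counts in every library, 0 to 519 without single animals (519 without animal 1322, 163 without 1022, 15 without 1922, 3 without 1323 and 0 without 1623 or 3622, with 2662 and 2448 genes at an unadjusted p under 0.05), and 156 without the border zone library of animal 3622. It was 113 without that of animal 1323, an alternative chosen after seeing the data. Of the epicardial and mesothelial genes, 0 were called in edgeR, 3 in DESeq2, 2 with library totals (TBX18 and TCF21, at 2.55 and 1.67 on the log2 scale, where the median of all genes moved from 0.04 to 0.32), and 0 to 1 without single animals. Of the genes on the related lists, 1 was called, against 0 with the block, 7 in DESeq2, 6 with library totals, 0 with no filter, 0 to 1 without single animals and 0 without the border zone library of animal 1323. The block changed no call of the tested epicardial and mesothelial genes. Of the 3 low genes none passed the exact test, and with library totals 1 did (UPK1B, 1.89 on the log2 scale, exact p = 0.03125). Without single animals KRT8 ranged from -0.0725 to 0.95 and UPK3B from -0.21 to 0.74. KRT8 reversed to -0.0725 without animal 1323 and to -0.0177 without its border zone library, and UPK3B reversed to -0.21 without that animal. Of the 15 genes most like a tested one, 5 were shared when ranked by Spearman correlation and 4 to 6 without single animals. The causes of these changes were not tested. Counting error weighs most on the low genes, with at most 6 reads of BNC1, 25 of UPK1B, 69 of UPK3B and 68 of KRT18 in a library.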

Other observations

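KRT20, a keratin of the gut and urothelium, had 22 reads in the border zone library of animal 3622, at most 2 in any other border zone library and 0 in the 6 remote zone libraries. KRT23 had 14 reads in all border zone libraries together, of which 13 were in that same library, and 1 in the remote zone. These reads lay in the library that also had reads for 6127 of 11724 genes at 0 elsewhere, and their part in each other was not tested.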
